A study of Mus musculus with 2 samples.

Results

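The ephrins, semaphorins, Slits and netrins are the classical guidance cues of the developing nervous system, and here their genes were described in the embryonic face together with the genes of their receptors. The members were 59 genes taken by symbol from the gene tables, of 43346 Ensembl genes in all and 21474 named protein coding genes. They held 8 ephrins and 13 Eph receptors, 16 semaphorins and 10 plexins and neuropilins, 3 Slits and 3 Robos, and 2 netrins and 4 netrin receptors. All 59 were found in both tables. The rule used symbols and no measured value, but the list was chosen with earlier results of these data known. Total RNA-seq was done on facial prominences taken from B6NCrl mouse embryos at day 10.5 of development. Both libraries belonged to 1 group, and the labels gave no treatment, no mutant and no other tissue. Replicate 1 combined the tissue of 69 embryos and replicate 2 that of 51, males and females together, and each library started from 10 ng of RNA. Where 2 values of the same gene, list or sum are joined by "and", the first is replicate 1 and the second replicate 2, and errors after ± are SDs of these 2 pools.

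Ephrins are membrane-bound ligands. The A type is held by a lipid anchor and the B type spans the membrane, and the Eph receptor tyrosine kinases that bind them can signal in both directions across a cell contact. Semaphorins are secreted or membrane-bound proteins read by plexins, with neuropilins as partners for most secreted members. Slits are secreted proteins that signal through Robo receptors, and netrins act through Dcc and neogenin, often for attraction, and through Unc5 receptors for repulsion. In the face these families are known to act on migrating neural crest cells, on blood vessels, on epithelial boundaries and on the axons of cranial nerves.

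Abundance is given as TPM, a unit of transcript number corrected for transcript length, so that levels of different genes may be compared. Genes held 40059176 expected counts in replicate 1 and 39531700 in replicate 2. Markers of several cell types were present. Of 6 markers of cranial mesenchyme, 6 were detected, with summed levels of 616 and 595 TPM, and all 6 markers of surface ectoderm were detected at a sum of 309 and 316 TPM. Neurons and cranial ganglia (7 of 7 markers, 507 and 512 TPM) and endothelium (6 of 6, 163 and 158 TPM) were also present. Markers of red blood cells were detected too, 4 of 4, at a sum of 8188 and 7047 TPM. In a bulk tissue, fewer cells of a type and less RNA per cell cannot be told apart, and which cells carried a ligand and which its receptor was not measured.

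Most of the listed guidance genes were transcribed in the facial prominence. With 1 TPM in each library as the minimum, 53 of the 59 members (89.8%) were detected, beside 58.2% of all protein coding genes. At 10 TPM or more in both, the count was 31 members (52.5%), beside 38.3% of protein coding genes, and at 20 TPM it was 19 members, beside 28.5%. The median member stood at 13.1 TPM, beside 3.565 TPM over all protein coding genes and 20.1 TPM over the detected ones. The members that missed the detection threshold were Plxnc1, Epha8, Sema3g, Ntn4, Epha6 and Sema7a, and only Ntn4, Epha6 and Sema7a had mean counts under 50. Plxnc1 was just under the threshold at 0.98 and 0.94 TPM and Plxna4 just above it at 1.47 and 1.31 TPM. Detection was alike by role, with 26 of 29 ligands and 27 of 30 receptors past the threshold. The members leave out some genes of these families and were chosen with earlier results of these data known. In a separate list of 20 family relatives, 12 were detected, so the share of members need not hold for whole families.

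**Figure D1:**
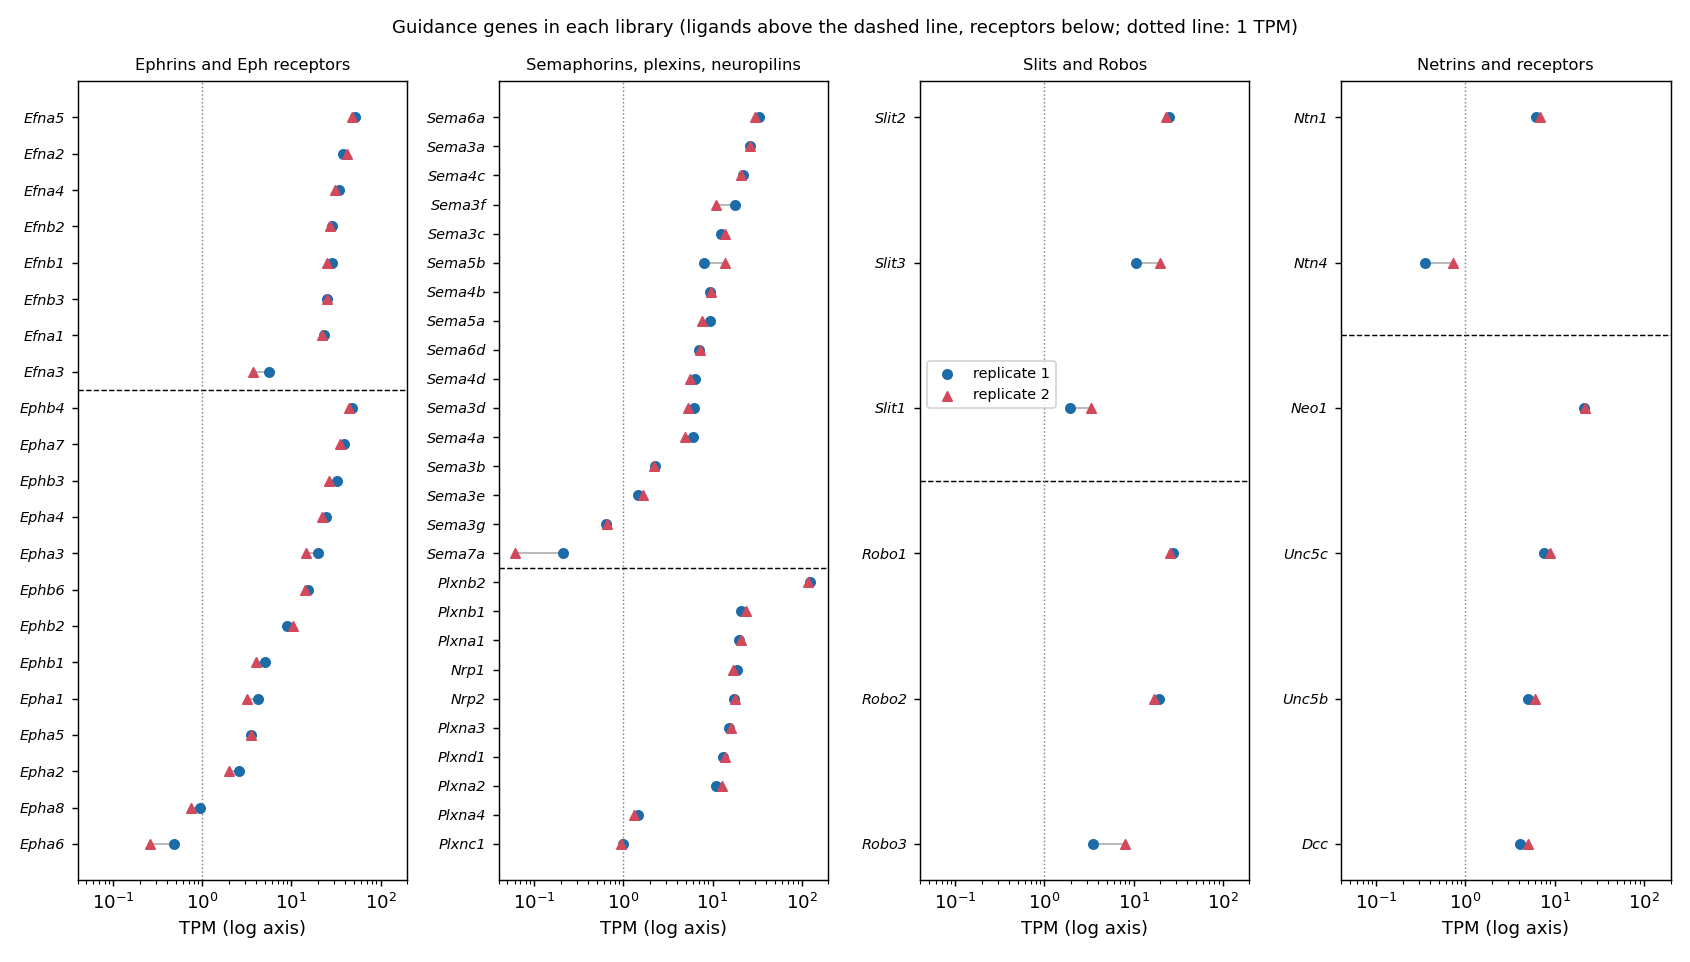
TPM of all 59 guidance genes in each library on a log axis, 1 panel for each family, with circles for replicate 1, triangles for replicate 2, ligands above the dashed line and receptors below it. Plxnb2 stands alone at the right end near 120 TPM, 7 of the 8 ephrins lie together between 22.3 and 52.2 TPM, and Sema5b, Slit1, Slit3 and Robo3 show triangles well to the right of their circles.

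The ephrin genes stood close together in level. Of the 8, 7 lay between 22.3 and 52.2 TPM in every library, and Efna3 alone was low. The A-type ligand Efna5 (ENSMUSG00000048915, chromosome 17, 62604184 to 62881317) led with 52.2 and 47.5 TPM, or 49.8 ± 3.26 TPM. Efna2 followed with 38.1 and 41.9 TPM, and Efna4 with 34.5 and 31.2 TPM. Efna5 and Efna2 are best known for setting up topographic maps of axons. The B-type ligands were close to each other, with 28.5 and 27.1 TPM for Efnb2, an arterial marker in the embryo. Efnb1, the gene mutated in craniofrontonasal syndrome, had 28.5 and 25.3 TPM, and Efnb3 had 24.9 and 24.9 TPM. Efnb1 and Efnb2 overlapped, and Efnb3 lay just below both in each library. Efna1 was at 22.99 and 22.3 TPM and Efna3 at 5.58 and 3.73 TPM. Efna3 lies between Efna4 and Efna1 on chromosome 3, 10.4 kb from the former and 32.8 kb from the latter with no coding gene in between, and was the low member of this cluster in both libraries.

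Eph receptors were far more unequal than their ligands, from 0.48 and 0.26 TPM for Epha6 to 48.02 and 44.8 TPM for Ephb4 (ENSMUSG00000029710, chromosome 5, 137350109 to 137378669). Ephb4, the receptor of Efnb2 in vein endothelium, was the most abundant Eph gene in both libraries. Epha7 was the highest A-type receptor over all transcripts at 39.2 and 34.6 TPM, Epha4 had 24.4 and 21.8 TPM and Epha3 19.8 and 14.6 TPM. Over coding transcripts alone Epha7 had 17.8 and 16.5 TPM, Epha4 20.3 and 16.1 TPM and Epha3 19.8 and 14.6 TPM. Epha7 was then the lowest of these in replicate 1 and the highest in replicate 2. The remaining A-type receptors were all under 5 TPM. They were Epha1 (4.22 and 3.16 TPM), Epha5 (3.48 and 3.47 TPM), Epha2 (2.55 and 2.01 TPM), Epha8 (0.94 and 0.74 TPM) and Epha6, which rested on 33 and 9 expected counts. Among B-type receptors, Ephb3 had 32.4 and 26.5 TPM. Ephb6, whose kinase domain is known to lack catalytic activity, had 15.4 and 14.02 TPM, Ephb2 had 9.01 and 10.4 TPM and Ephb1 5.09 and 3.95 TPM. All 5 B-type receptors were detected, but only 6 of the 8 A-type receptors, and 3 in each class reached 10 TPM in both libraries. Summed over genes, A-type ephrins came to 153 and 147 TPM and A-type receptors to 95.01 and 80.6 TPM. B-type ephrins came to 81.95 and 77.3 TPM, and B-type receptors stood higher at 110 and 99.6 TPM. The ligand excess was therefore on the A side in both libraries, and on the B side receptors were the higher. The B-side order rested on Ephb4, which made up 44.3% of B-type receptor TPM by mean level. Without Ephb4 the B-type receptors would stand below the B-type ephrins in both libraries.

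Short exons that annotated coding transcripts either contain or skip were looked for in all members. An exon was kept if it was coding, at most 160 bases long, flanked by the same exons in both forms, included in 5 to 95% in each library, and if the forms with and without it summed to at least 4 TPM on average over the libraries. This rule was set after transcript values had been seen, and the shares are the quantifier's estimates per transcript rather than counts of spliced reads. It returned 6 exons, in Ephb1, Ephb4, Nrp2, Robo2, Unc5c and Sema6a, all with lengths that are multiples of 3 and so keep the reading frame. The rule was run on the members only, so no share over all genes stands beside this count or these lengths. The Sema6a exon has 51 bases and was included in 58.7% and 48.6%. In Ephb4 the exon has 156 bases and encodes part of the SAM domain, a protein interaction module at the end of Eph receptors (chr5:137372385-137372540, mm10, plus strand). It was included in 84.1% and 87.96% of the transcripts that join its neighbours. In Ephb1 the exon has 123 bases and encodes the stretch before the kinase domain and its beginning (chr9:101984082-101984204, mm10, minus strand). Its inclusion was 65.4% and 90.9%, so that the libraries lay far apart, at a skipping form of only 1.63 and 0.34 TPM. Both exons are shown because they encode parts of the receptor that signal inside the cell, with the exon in capitals and 12 bases of each neighbouring exon in lower case.
Ephb4 exon 16: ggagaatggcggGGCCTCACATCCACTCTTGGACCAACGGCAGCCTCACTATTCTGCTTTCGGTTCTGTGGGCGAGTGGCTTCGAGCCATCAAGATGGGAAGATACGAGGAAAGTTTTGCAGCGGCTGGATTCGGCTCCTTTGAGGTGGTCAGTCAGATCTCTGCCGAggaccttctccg
Ephb1 exon 10: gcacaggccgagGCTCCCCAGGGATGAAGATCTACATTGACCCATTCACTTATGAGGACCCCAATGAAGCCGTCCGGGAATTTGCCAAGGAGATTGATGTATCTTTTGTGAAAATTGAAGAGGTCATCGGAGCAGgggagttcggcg

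Semaphorin genes spanned a wide range and, over all transcripts, were led by a membrane-bound and a secreted member. Sema6a (ENSMUSG00000019647, chromosome 18, 47235598 to 47368870), a transmembrane ligand of A-type plexins, had 33.3 and 30.4 TPM. Sema3a (ENSMUSG00000028883, chromosome 5, 13125414 to 13602565), the secreted repellent of sensory axons, had 26.6 and 26.4 TPM, the closest agreement among the semaphorins above 20 TPM. Sema4c followed with 21.9 and 20.8 TPM. Over coding transcripts alone Sema6a did not lead, at 19.1 and 17.7 TPM. It then stood below Sema3a at 26.6 and 26.4 TPM and Sema4c at 20.7 and 20.02 TPM. Of the other secreted class 3 genes, Sema3f had 18.1 and 11.01 TPM, Sema3c 12.5 and 13.7 TPM and Sema3d 6.25 and 5.26 TPM. Sema3b (2.28 and 2.22 TPM), Sema3e (1.47 and 1.68 TPM) and Sema3g (0.64 and 0.66 TPM) were low. Sema3a lies on chromosome 5 between Sema3d, 536.5 kb away, and Sema3e, 422.7 kb away, and was higher than both of these neighbours in each library. In class 4, Sema4b had 9.47 and 9.57 TPM, Sema4d 6.44 and 5.57 TPM and Sema4a 5.98 and 4.93 TPM. In classes 5 and 6, Sema5a had 9.3 and 7.69 TPM, Sema5b 8.06 and 13.9 TPM and Sema6d 7 and 7.3 TPM. Sema7a, a lipid-anchored ligand, was lowest of all members at 0.21 and 0.06 TPM from 18 and 5 expected counts. Summed by class, class 3 came to 67.8 and 60.9 TPM, class 4 to 43.8 and 40.9 TPM, class 6 to 40.3 and 37.7 TPM and class 5 to 17.4 and 21.6 TPM. Membrane-bound classes together thus exceeded the secreted class in both libraries.

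Over all transcripts the receptor side was dominated by Plxnb2 (ENSMUSG00000036606, chromosome 15, 89155549 to 89180788), a B-type plexin that binds class 4 semaphorins. It stood at 123 and 117 TPM, the highest level of any member, above 93.7% of protein coding genes. It supplied 50.9% and 48.4% of the summed TPM of plexins and neuropilins. Over coding transcripts alone its share was smaller, with 63.7 and 62.8 TPM of a sum of 170.4 and 172.7 TPM. Plxnb1 was next at 21.1 and 24.01 TPM. The A-type plexins, partners of neuropilins, had 19.6 and 20.7 TPM for Plxna1, 15.4 and 16.3 TPM for Plxna3 and 10.9 and 12.8 TPM for Plxna2. Plxna4 was far lower than these at 1.47 and 1.31 TPM. Plxnd1, the receptor of Sema3e in vessels, had 13.2 and 13.6 TPM. The neuropilins, which also bind vascular endothelial growth factors, were nearly equal, at 18.8 and 16.9 TPM for Nrp1 and 17.3 and 17.8 TPM for Nrp2, and their order differed between the libraries. Plxnc1, the receptor of Sema7a, stood at 0.98 and 0.94 TPM, so that this ligand and its receptor were both under the detection threshold.

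In Nrp2 a coding exon of 51 bases (chr1:62812534-62812584, mm10, plus strand) was included in 25.6% and 23.9% of the transcripts that join its neighbours. It is shown because the forms with and without it were both present at like shares in the libraries, with the exon in capitals as before.
Nrp2 exon 16: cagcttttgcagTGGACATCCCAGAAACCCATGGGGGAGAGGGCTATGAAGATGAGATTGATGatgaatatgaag

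Among Slit and Robo genes, Slit2 and Robo1 were in the lead. Slit2 (ENSMUSG00000031558, chromosome 5, 47983138 to 48307733) had 25.02 and 23.4 TPM and made up 66.5% and 50.5% of summed Slit TPM. Slit3 was at 10.7 and 19.6 TPM and Slit1, best known in the brain, at 1.95 and 3.29 TPM. Slit3 and Slit1 were higher in replicate 2, and Slit2 was not. Robo1 (ENSMUSG00000022883, chromosome 16, 72308306 to 73046095) had 27.9 and 25.7 TPM and Robo2, its neighbour at a distance of 845.7 kb with no coding gene between, had 19.4 and 16.9 TPM. Robo3, a divergent Robo needed by axons that cross the hindbrain midline, had 3.51 and 7.96 TPM. A coding exon of 126 bases in Robo2 (chr16:73933046-73933171, mm10, minus strand) was included in 20.3% and 24.9% of the transcripts that join its neighbours. The skipping form was the more abundant in both libraries, and the exon is shown to identify the minor form.
Robo2 exon 21: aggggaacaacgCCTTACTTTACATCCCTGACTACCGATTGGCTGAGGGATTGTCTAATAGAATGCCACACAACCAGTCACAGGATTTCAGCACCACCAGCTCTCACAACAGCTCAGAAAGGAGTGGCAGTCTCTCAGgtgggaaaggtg

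Netrin genes were the scarcest ligands, and their receptors were led by neogenin. Ntn1 (ENSMUSG00000020902, chromosome 11, 68209364 to 68400823), netrin 1, had 6.22 and 6.84 TPM and Ntn4, a netrin of basement membranes, 0.35 and 0.72 TPM from 20 and 35 expected counts. Neo1 (ENSMUSG00000032340, chromosome 9, 58874687 to 59036441), which encodes neogenin, also a receptor of repulsive guidance molecules, had 21.2 and 21.8 TPM and supplied 55.95% and 52.3% of summed netrin receptor TPM. Dcc, the related receptor of commissural axons, was lower at 4.04 and 5.07 TPM. Unc5c had 7.59 and 8.81 TPM and Unc5b, a vascular netrin receptor, 5.05 and 5.98 TPM. Every netrin receptor and both netrins were higher in replicate 2 by TPM, the receptors and Ntn1 by less than 1.5-fold. In Unc5c a coding exon of 57 bases (chr3:141786857-141786913, mm10, plus strand) was included in 11.3% and 10.3% of the transcripts that join its neighbours. It is shown because its skipping was the most complete of the 6 exons.
Unc5c exon 8: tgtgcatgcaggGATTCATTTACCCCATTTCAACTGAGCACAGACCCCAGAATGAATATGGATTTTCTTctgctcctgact

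Among the listed members, ligands exceeded receptors in summed TPM in the ephrin family only. Ephrins came to 230 ± 8.10 TPM and Eph receptors to 193 ± 17.5 TPM, a ratio of 1.15 and 1.24 in the libraries. Semaphorins came to 165 ± 5.95 TPM and their receptors to 241 ± 0.474 TPM, a ratio of 0.701 and 0.668. The order turned without Plxnb2, the most abundant receptor, at a mean ratio of 1.36, and did not without Sema6a, the most abundant ligand, at 0.553. Leaving out both gave 1.10, and leaving out one gene at a time was chosen after the data were seen. Slits came to 41.97 ± 6.15 TPM and Robos to 50.6 ± 0.233 TPM, a ratio of 0.741 and 0.918. Netrins came to 7.07 ± 0.7 TPM and their receptors to 39.8 ± 2.65 TPM, a ratio of 0.174 and 0.182, the lowest of the 4 families. Counting only transcripts annotated as protein coding, an alternative chosen after the data were seen, kept each family on its side of 1 but moved the Slit ratio most, to 0.415 and 0.478. The ephrin ratio then became 1.37 and 1.51. The sums weigh genes by abundance and say nothing of binding strength or of which cells met.

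**Figure D2:**
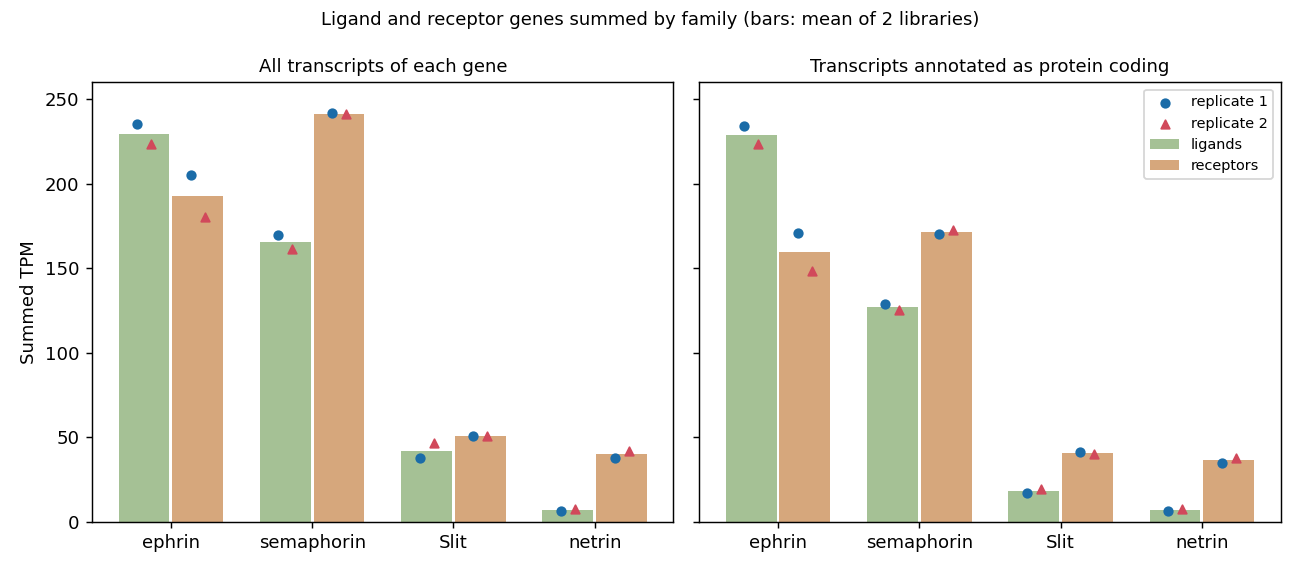
Summed TPM of the listed ligand genes and receptor genes in each family, over all transcripts (left) and over transcripts annotated as protein coding (right), with bars for the mean and points for the 2 libraries. Ephrins stand above Eph receptors and netrins far below their receptors in both panels, while Slits fall from 42.0 TPM to 18.2 TPM when only coding transcripts are counted.

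Single ligands and receptors known to bind each other or to act in the same receptor complex were compared in 32 pairs. The difference of log2(TPM + 0.1) was set against the spread between the libraries, moderated by limma across genes, and a pair was called different beyond the spread if its 95% interval did not hold 0 and the libraries agreed in sign. By this rule 26 pairs differed, 14 with the ligand higher and 12 with the receptor higher. Genes of unlike level differ in this way whatever their function, so the count describes levels and no relation. The interval covers the spread of these 2 pools and no error of TPM that both pools share.

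Among ephrins, Efna5 exceeded each of its listed receptors, Epha3 by 1.55 (95% interval 1.15 to 1.94), Epha4 by 1.11 (95% interval 0.88 to 1.34) and Epha7 by 0.43 (95% interval 0.21 to 0.66), all on the log2 scale. Over coding transcripts the difference of Efna5 and Epha7 was larger, at 1.53. Efna1 exceeded Epha2 by 3.27 and Efna2 exceeded Epha5 by 3.49, the widest gaps of the family. Efnb1 exceeded Ephb1 by 2.56 and Ephb2 by 1.47, but did not differ from Ephb3 beyond the spread, with a difference of -0.13 (95% interval -0.44 to 0.19). Efnb2 was lower than Ephb4, at -0.74 (95% interval -0.92 to -0.55), and slightly higher than Epha4, at 0.27 (95% interval 0.04 to 0.50). Efnb2 and Ephb4 formed the only ephrin pair of those listed in which the receptor was higher beyond the spread. The small difference of Efnb2 and Epha4 fell within the spread when either library was left out.

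Among semaphorins, the secreted ligand Sema3a exceeded its binding receptor Nrp1 by 0.57 (95% interval 0.34 to 0.80). It exceeded Plxna4, the scarcest of the A-type plexins, by 4.16 (95% interval 3.69 to 4.64). The more abundant Plxna1, Plxna2 and Plxna3 were not paired with Sema3a. Sema6a exceeded Plxna4 by 4.42 and Plxna2 by 1.42, and over coding transcripts by 3.63 and 0.75. In the remaining pairs past the rule the receptor was higher. Sema3e was lower than Plxnd1, at -3.02 (95% interval -3.50 to -2.54), and Sema4c lower than Plxnb2, at -2.48 (95% interval -2.66 to -2.30). Over coding transcripts these differences were -3.41 and -1.63. The difference was -1.89 for Sema4d and Plxnb1 and -2.25 for Sema7a and Plxnc1, which rests on the few counts of Sema7a. With Plxna1, it was -1.48 for Sema6d and -1.24 for Sema5a. Sema3c was below Nrp2, at -0.43, and at -1.27 over coding transcripts. Sema3f and Nrp2 were not separated, at 0.06 and -0.69 in the libraries, which disagreed in sign, but over coding transcripts Sema3f was lower beyond the spread, at -0.86. Sema5b and Plxna3 were not separated with both libraries, at -0.58 (95% interval -1.22 to 0.07), but the difference was -0.93 and beyond the spread without replicate 2, and -0.23 without replicate 1.

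Slit2 and Robo1 did not differ beyond the spread, at -0.15 (95% interval -0.36 to 0.07), and Slit2 exceeded Robo2 by 0.42 (95% interval 0.16 to 0.68). Over coding transcripts alone the difference was -1.57 for Slit2 and Robo1, and -0.23 for Slit2 and Robo2, so the receptors were then higher and the order of Slit2 and Robo2 turned. Slit2 and Robo2 were also within the spread when replicate 2 was left out. Slit3 was lower than Robo1, at -0.88 (95% interval -1.59 to -0.18), and within the spread when replicate 1 was left out. Over coding transcripts the difference of Slit3 and Robo1 was -2.02. Slit1 was lower than Robo2, at -2.79. Ntn1 lay far below Neo1, at -1.70 (95% interval -2.01 to -1.40), and just above Dcc, at 0.52 (95% interval 0.05 to 0.98). It did not differ beyond the spread from Unc5b, at 0.24, or from Unc5c, at -0.32. The difference of Ntn1 and Dcc was within the spread when either library was left out, and that of Ntn1 and Unc5c was 0.33 over coding transcripts and, with posterior mean TPM, -0.43 and beyond the spread. Ntn4 and Neo1 showed the widest gap of all 32 pairs, at -5.15 (95% interval -6.02 to -4.29).

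**Figure D3:**
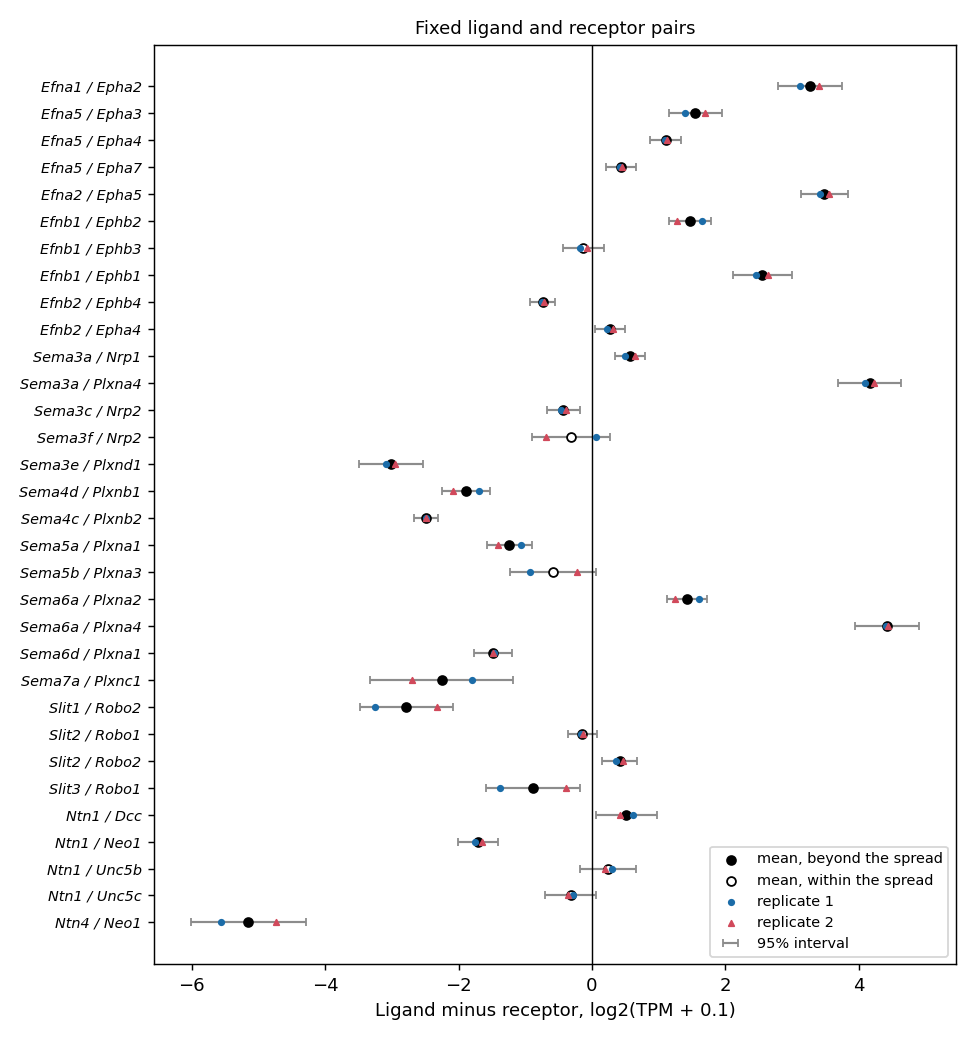
Difference of ligand and receptor on the log2(TPM + 0.1) scale for the 32 fixed pairs, with small circles and triangles for replicates 1 and 2, large points for the mean and bars for the 95% interval. Open points mark the 6 pairs within the spread, and the axis runs from Ntn4 far below Neo1 at -5.15 to Sema6a far above Plxna4 at 4.42.

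Between the libraries, most guidance genes were close and a few Slit, Robo and semaphorin genes were higher in replicate 2. Differences were computed from expected counts with TMM scaling, with a prior count of 2, for genes averaging 50 or more counts, which 56 of the 59 members passed. With 1 library against another there is no replicate check and no p-value. Robo3 was highest with a log2 ratio of 1.28, from 354 and 838 expected counts. Slit1 followed with 0.77, from 280 and 466 expected counts, Sema5b with 0.71, from 727 and 1162 expected counts, and Slit3 with 0.59, from 891 and 1304 expected counts. These 4 of 56 members (7.14%) were at least 1.5-fold higher in replicate 2, beside 1.99% of the 14035 named genes past the same filter. None of the 56 was 1.5-fold higher in replicate 1, beside 2.66% of those genes. Slit3 sat at the threshold with 1.502-fold, had 1.494-fold with the median ratio size factors of DESeq2, and over coding transcripts had 1.27-fold by TPM. On the ratio of deposited TPM, Sema3f was also past the threshold, higher in replicate 1, while its counts differed 1.30-fold. The lowest log2 ratios were -0.41 for Epha3, -0.38 for Epha1 and -0.38 for Sema3f. The median log2 ratio of the members was -0.01, beside 0.01 over all genes, and the median size of the ratio was 0.14, beside 0.09.

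Markers of other cell types differed between the libraries too. The 4 hindbrain Hox genes summed to 15.1 and 40.5 TPM, with 4 of 4 at least 1.5-fold higher in replicate 2. Neural tube progenitor markers summed to 201 and 267 TPM, with 2 of 6 past that fold, and heart markers to 2.48 and 8.69 TPM, with 3 of the 3 that passed the count filter, although no heart marker reached 1 TPM in both libraries. Among the progenitor markers, Hes5 had 71.2 and 126 TPM, Fabp7 was alike at 105.6 and 107.5 TPM, and Olig2 was lower in replicate 2 at 2.95 and 1.98 TPM. The heart marker under the count filter, Nkx2-5, was also lower in replicate 2, at 0.64 and 0.4 TPM. Markers of neurons and cranial ganglia were alike with 0 of 7 past the fold in either direction, and none of these markers was at 0. Muscle precursor markers went the other way at 15.4 and 11.5 TPM, with 2 of 4 higher in replicate 1, and so did 1 of 6 mesenchyme markers. The part of these cells in the difference of Robo3, Slit1, Slit3 and Sema5b was not tested.

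The files also hold lower and upper bounds of TPM for each gene in each library, whose level is not given in the sources used here. For 9 of the 56 members (16.1%) the bounds of replicate 2 lay wholly above those of replicate 1, beside 6.1% of all genes. They were Efna2, Plxnb1, Plxna2, Unc5b and Dcc besides the 4 genes past 1.5-fold. For 13 members (23.2%) replicate 1 lay wholly above, beside 10.5% of all genes. The bounds reflect the estimate within a library and no spread between embryos, and for 3 of the 56 members (5.36%, beside 4.41% of all genes), Sema4d, Sema4a and Sema3b, the TPM lay outside its own bounds in both libraries.

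**Figure D4:**
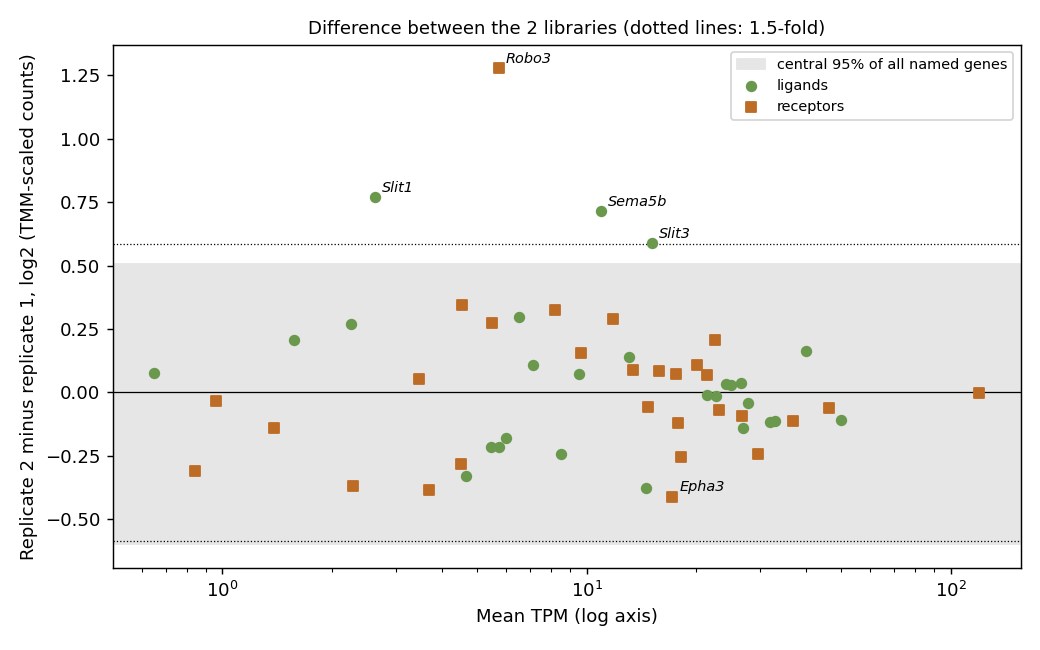
Log2 ratio of replicate 2 over replicate 1 from TMM-scaled expected counts against mean TPM on a log axis for the 56 members averaging 50 or more counts, circles for ligands and squares for receptors. The grey band holds the central 95% of all named genes, and Robo3, Slit1, Sema5b and Slit3 lie above the upper dotted line of 1.5-fold while no member lies below the lower dotted line.

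Part of the signal of several guidance genes was assigned to transcripts that are not annotated to make protein. Classes were taken from GENCODE M21 by transcript identifier. Over all members, protein coding transcripts held 81.7% and 81.4% of TPM, transcripts with a retained intron 9.01% and 9.21%, and other processed transcripts 8.50% and 8.33%. No value over all genes is given beside these shares, so they are not shown to be particular to guidance genes. Protein coding transcripts held under 50% of TPM in both libraries in 4 of the 33 members with at least 2 transcripts and 5 TPM (12.1%), beside 9.77% of such genes of the protein coding class. These were Epha7, Slit2, Plxna3 and Sema4a. In Epha7 a processed transcript of 3187 bases led with 41.8% and 39.4% of the gene, and the gene had 17.8 and 16.5 TPM from coding transcripts. In Slit2 a retained-intron transcript of 3264 bases held 36.95% and 35.6%, and coding transcripts 37.4% and 36.7%. In Plxna3 coding transcripts held 42.7% and 44.7% and in Sema4a 45.99% and 39.96%. The share of Plxnb2 given to coding transcripts was 51.8% and 53.8%, and a processed transcript of 841 bases took 42.3% and 40.4%. With 63.7 and 62.8 TPM from coding transcripts, Plxnb2 was still the highest member. Robo1 is among the 15 members with 1 annotated transcript, where no such split can be seen. Total RNA holds unspliced RNA as well, and its part in the retained-intron share was not tested.

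The leading transcript was the same in both libraries in 30 of the 33 members, beside 93.8% of all 7753 genes passing the same filter. The exceptions were Sema4a, Sema4c and Slit3. In Slit3 a coding transcript of 5228 bases held 54.2% and 37.4% of the gene and a processed transcript of 1218 bases 28.04% and 49.4%. Most of the higher TPM of Slit3 in replicate 2 lay in the processed transcript, which had 2.99 and 9.7 TPM, while the coding transcript had 5.77 and 7.35 TPM. In Sema4c the 2 leading transcripts were both coding, with 28.8% and 40.4% for a form of 3640 bases and 31.1% and 30.6% for a form of 3773 bases.

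**Figure D5:**
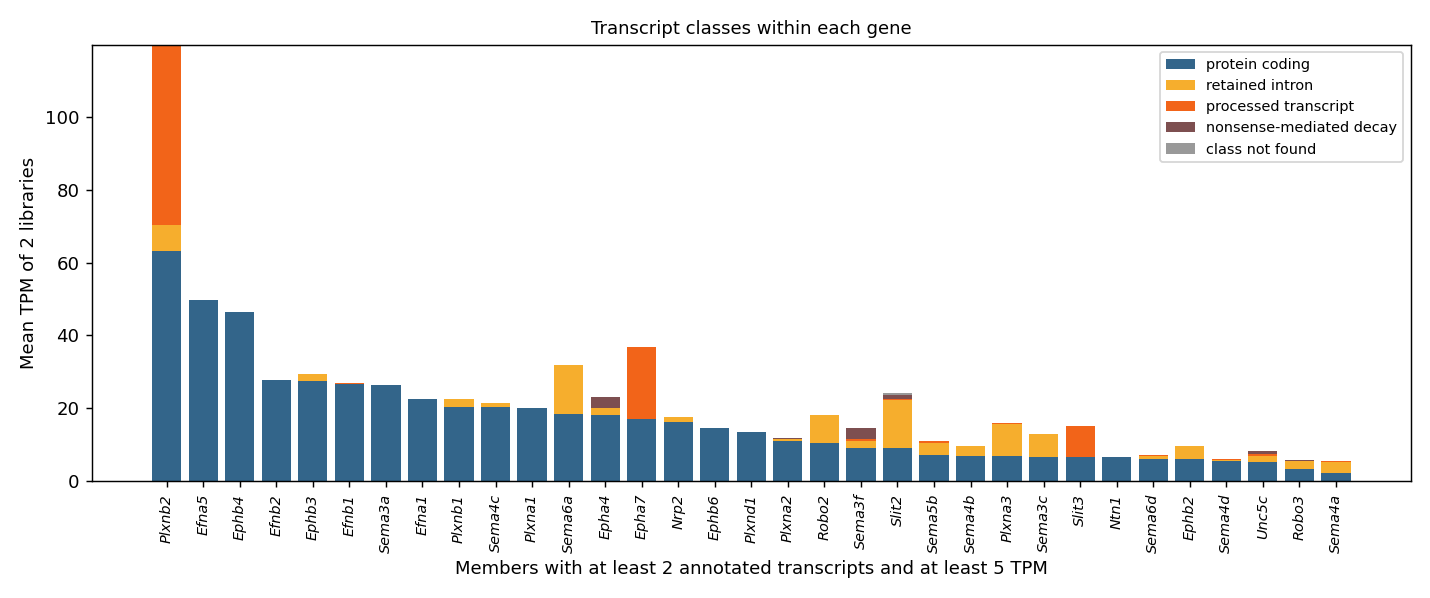
Mean TPM of the 2 libraries in each of the 33 members with at least 2 annotated transcripts and at least 5 TPM, stacked by transcript class and ordered by the coding part. Plxnb2 and Epha7 carry large processed-transcript parts, Slit2, Sema6a and Robo2 large retained-intron parts, and the ephrins Efna5, Efnb2 and Efna1 almost only coding transcripts.

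The promoters of guidance genes were mostly rich in CpG. Upstream windows of 250 bases were taken from RefSeq on GRCm38.p6, and the dinucleotide CG, which reads the same on both strands, was counted in each. A window was found for 50 of the 59 members, and for genes with several windows the richest was kept. The median was 17.5 CG per window, and 41 of 50 members (82%) held 10 or more, beside 55.4% of protein coding genes and 37.8% of all single windows. Receptors reached this mark in 25 of 27 cases and ligands in 16 of 23. Among detected members the count was 36 of 44, and among those not detected 5 of 6, so the mark did not separate them. A start annotated by RefSeq need not be the start used in this tissue. The windows of Efna4 (chr3:89338029-89338278, minus strand, 7 CG, 32.8 ± 2.33 TPM) and Epha8 (chr4:136956817-136957066, minus strand, 46 CG, 0.84 ± 0.141 TPM) are shown because the abundant gene has few CG and the barely expressed gene has the most of all members. They were chosen after the counts were seen, and CG is in capitals. Methylation was not measured.
Efna4 upstream window: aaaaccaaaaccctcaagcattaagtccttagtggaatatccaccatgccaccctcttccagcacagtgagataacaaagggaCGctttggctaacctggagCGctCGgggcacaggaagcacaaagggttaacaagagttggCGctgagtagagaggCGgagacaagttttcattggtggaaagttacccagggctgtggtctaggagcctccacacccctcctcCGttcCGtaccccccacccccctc
Epha8 upstream window: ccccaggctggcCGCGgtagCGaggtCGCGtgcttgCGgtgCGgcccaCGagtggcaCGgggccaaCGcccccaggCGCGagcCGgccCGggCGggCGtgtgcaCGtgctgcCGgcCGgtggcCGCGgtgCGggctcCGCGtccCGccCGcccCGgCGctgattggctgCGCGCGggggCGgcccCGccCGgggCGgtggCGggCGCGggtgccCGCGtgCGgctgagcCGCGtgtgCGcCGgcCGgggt

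Reads of overlapping genes may touch some members. Of the 59 members, 29 overlap another gene of the tables, and 2 overlap a gene with at least 50 counts in both libraries. Overlaps were counted for the members only, so no share over all genes stands beside these counts. Epha1 overlaps Zyx, a focal adhesion gene on the opposite strand with 81.7 and 79.3 TPM, over 1727 bases. Plxna2 overlaps the transcript model Gm37783 on its own strand. The low level of Epha1 is therefore uncertain, as the use of strand in counting is not given in the sources used here.

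Other genes of the guidance pathways were taken from a list of family relatives, intracellular effectors, and coreceptors and proteases. Of 83 genes, 70 were detected, beside 58.2% of protein coding genes, and 41 reached 10 TPM in both libraries, beside 38.3%. Effectors were detected in 46 of 49 cases, coreceptors and proteases in 12 of 14, and family relatives in 12 of 20, close to the background. Of these relatives 4 reached 10 TPM, a share under the background. The highest were Cfl1, the actin-severing protein cofilin, with 2137 and 2136 TPM, the small GTPase Cdc42 with 494 and 475 TPM and Dpysl2, a mediator of Sema3a signalling, with 327 and 320 TPM. The lowest were Dscam, a netrin receptor of neurons, with 0.1 and 0.06 TPM and Plxnb3 with 0.12 and 0.06 TPM, far below the other B-type plexins. Of 78 averaging 50 or more counts, 5 were at least 1.5-fold higher in replicate 2, beside 1.99% of all genes, and 1 in replicate 1, beside 2.66%. Ret, a receptor tyrosine kinase of neural crest and motor neurons, was the only gene past 2-fold, with 0.72 and 1.83 TPM and a ratio of 2.46.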

How the data were processed

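Total RNA-seq of 2 pools of E10.5 facial prominence was used as deposited. Per the file headers and notes, reads were placed on mm10 and quantified by the authors against GENCODE M4, with expected counts (not normalized) and TPM (scaled to the same total over all features). The percent of each transcript within its gene was also deposited. Aligner, quantifier and use of strand are not given in the sources used here.

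Members and lists were chosen with earlier results of these data known. Genes were matched by identifier to GENCODE M21 on GRCm38. With 1 group there was no contrast and no test between conditions, and an exact permutation test of 2 against 2 values cannot go below a two-sided p of 0.33. Pairs were compared on log2(TPM + 0.1) with limma 3.58.1 (intercept only, trend, genes averaging 10 or more counts). TMM factors came from edgeR 4.0.16 in R 4.3.3 on expected counts rounded to whole numbers. Replicate ratios were then computed from the unrounded expected counts with these factors. DESeq2 1.42.0 gave alternative size factors. Nothing says whether the pools were from separate litters. Named genes were the members leading or trailing each role, those of pairs and those past 1.5-fold, with the remaining members given as values. The relatives' list named the 3 highest, the 2 lowest and those past 2-fold. Exon, promoter and coding-transcript descriptions were chosen after values were seen. Ntn3 was not analysed here.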

Additional observations from a re-analysis of the deposited data

How the results depend on the processing

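No paired analysis between conditions was possible because there was only 1 group. For ligand and receptor pairs, the interval added the spreads of both genes as if independent. Its width thus made no use of their pairing within a library. The ephrin ratio of summed TPM kept above 1 and the Slit and netrin ratios below 1 under all alternatives run, and the semaphorin ratio turned to 1.099 without its most abundant ligand and receptor, to 1.361 without that receptor alone, and was 0.5528 without that ligand alone, both single omissions being chosen after seeing the data. The other semaphorin ratios were 0.7171 with posterior mean TPM, 0.2666 with class 3 ligands only and 0.8024 with plexins as the only receptors. Over coding transcripts, an alternative chosen after seeing the data, the ratios were 1.438 for ephrins, 0.741 for semaphorins, 0.4468 for Slits and 0.194 for netrins, and the netrin ratio was 0.02862 without Ntn1 and Neo1. Detected members ranged from 41 (TPM of at least 5) to 56 (at least 0.5), and pairs beyond the spread from 23 to 27. Pair differences that changed sign were Sema3f and Nrp2 without replicate 2 (0.06399, against -0.6905 without replicate 1), and over coding transcripts Sema5b and Plxna3 (0.02635), Slit2 and Robo2 (-0.23), and Ntn1 and Unc5c (0.33). Members 1.5-fold higher in replicate 1 numbered 1 (Sema3f) by deposited TPM and 2 (Epha6 and Sema7a) both with a mean count of at least 10 and with no count filter, which admit genes of few counts. Members higher in replicate 2 numbered 3 to 5, and the leading transcript was the same in 30 of 33 with posterior means. A pair in a lone library was judged by the spread of the full fit. With 2 pools, spread between embryos is averaged within a pool and cannot be estimated. Other causes of these changes were not tested.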
